A study of Homo sapiens with 8 samples.

Results

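Chromatin accessibility was followed around 10 genes that set the pace of cell division while human embryonic stem cells were turned into heart muscle cells. They are the MYC family (MYC, MYCN, MYCL), the D-type cyclins (CCND1, CCND2, CCND3), cyclin E1 (CCNE1) and the cell cycle inhibitors CDKN1A, CDKN1C and CDKN2A, 10 of 19962 protein-coding genes on chromosomes 1 to 22 and X. The established line RUES2 was used, and the labels name no edited allele. ATAC-seq, in which the Tn5 transposase inserts sequencing adapters into open DNA, was run before differentiation (day 0, hESC), in mesoderm on day 2 (MES), in progenitors of the heart on day 5 (CP) and in cardiomyocytes on day 14 (CM), all along 1 directed differentiation and with 2 libraries a stage. For every library the authors called peaks, stretches where reads piled up above the local background. All peaks of the 8 lists that overlapped a gene or the 50 kb on either side were taken and merged over lists, which gave 185 regions of 285909 in the genome.

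In most dividing cells entry into S phase is driven by cyclin D with CDK4 or CDK6 and then by cyclin E with CDK2, which phosphorylate the retinoblastoma protein and release E2F factors that switch on the genes of DNA synthesis. MYC, MYCN and MYCL are related transcription factors that bind the E-box as partners of MAX and raise the expression of cyclins and of ribosome genes. CDKN1A encodes p21, an inhibitor of CDK2, CDKN1C encodes p57, an imprinted inhibitor, and CDKN2A encodes p16, which blocks CDK4 and CDK6, and from a start further upstream ARF. Pluripotent cells run a short cycle, and cardiomyocytes slow down and leave the cycle as they mature.

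Sequences are shown first for 5 regions whose peaks came and went, 4 of them called in hESC or MES and not in CM and 1 called late. They were chosen after the values were seen and include the 3 regions with a SOX/OCT match. Each line gives the 200 bases around the strongest summit, with the position of the region's centre relative to the gene's main start, counted along the gene's strand, and hg38 coordinates. Capitals mark the composite site that SOX2 and OCT4 share (CTTTG, any 2 bases, ATGCAAA), the octamer ATGCAAAT, the TCF/LEF letters CTTTGA and, for factors of the GATA family, the letters AGATAA, on either strand, and these may overlap.
CDKN2A +41.4 kb, chr9:21933379-21933578, plus strand: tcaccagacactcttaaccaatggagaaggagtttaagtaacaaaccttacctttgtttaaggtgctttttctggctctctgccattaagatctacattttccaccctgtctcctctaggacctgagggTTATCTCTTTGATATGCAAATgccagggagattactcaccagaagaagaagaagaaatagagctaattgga
MYCN −44.2 kb, chr2:15896183-15896382, plus strand: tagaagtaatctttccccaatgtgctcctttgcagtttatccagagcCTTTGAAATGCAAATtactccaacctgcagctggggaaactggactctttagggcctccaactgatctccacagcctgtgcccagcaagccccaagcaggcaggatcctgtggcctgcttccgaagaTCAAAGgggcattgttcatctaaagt
MYCN +40.1 kb, chr2:15980578-15980777, plus strand: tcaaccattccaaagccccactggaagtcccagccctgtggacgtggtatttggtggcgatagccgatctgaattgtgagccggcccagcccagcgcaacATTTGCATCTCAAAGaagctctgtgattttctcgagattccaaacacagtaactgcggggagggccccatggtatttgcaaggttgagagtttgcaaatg
MYCN +51.3 kb, chr2:15991782-15991981, plus strand: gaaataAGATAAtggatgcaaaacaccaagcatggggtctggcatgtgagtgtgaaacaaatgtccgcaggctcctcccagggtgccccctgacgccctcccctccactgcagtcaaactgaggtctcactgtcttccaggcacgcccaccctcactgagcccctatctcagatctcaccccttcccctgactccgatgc
MYCL +56.0 kb, chr1:39845678-39845877, plus strand: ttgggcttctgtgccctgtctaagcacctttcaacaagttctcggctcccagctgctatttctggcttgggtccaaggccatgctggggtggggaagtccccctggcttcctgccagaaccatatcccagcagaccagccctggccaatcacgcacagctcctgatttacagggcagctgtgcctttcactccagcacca

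The composite letters lay in 3 of the 5 sequences, CDKN2A +41.4 kb, MYCN −44.2 kb and MYCN +40.1 kb, all regions with a peak in both hESC libraries and none in CM. Of the 185 regions, these 3 (1.62%) were the only ones with a composite match in the 200 bases searched, against 0.0486% of all regions. Among all 37100 distal regions lost between hESC and CM, 0.21% held it, and none of the 8718 distal regions gained in CM did. The composite and the octamer were added to the search after the sequences had been read, so these shares are descriptions without a test. AGATAA, the letters of the GATA site, lay in CDKN2A +41.4 kb and in MYCN +51.3 kb, a region with peaks in MES alone, and in 23.1% of all 7734 distal regions called in both MES libraries and in no other, beside 30.6% of those gained in CM and 7.34% of those lost between hESC and CM. MYCL +56.0 kb, which appeared in CP and CM, held none of these letters.

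A second set of sequences belongs to starts and other regions described by their strength. Here capitals mark GGGCGG (SP/KLF), CACGTG (the MYC E-box), the E2F letters TTTGGCGC, TTTCGCGC and GGCGGGAA, and CTTTGA.
CDKN2A −0.1 kb, chr9:21974843-21975042, plus strand: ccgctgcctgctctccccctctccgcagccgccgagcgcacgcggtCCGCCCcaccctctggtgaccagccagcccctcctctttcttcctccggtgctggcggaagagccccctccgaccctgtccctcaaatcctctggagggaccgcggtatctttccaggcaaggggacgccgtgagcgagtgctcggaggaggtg
CDKN2A +9.4 kb, chr9:21965601-21965800, plus strand: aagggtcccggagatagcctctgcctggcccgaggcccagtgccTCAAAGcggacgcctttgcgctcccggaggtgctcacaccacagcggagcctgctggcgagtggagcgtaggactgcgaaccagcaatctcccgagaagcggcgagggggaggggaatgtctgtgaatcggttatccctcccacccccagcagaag
CDKN1A −17.7 kb, chr6:36660807-36661006, plus strand: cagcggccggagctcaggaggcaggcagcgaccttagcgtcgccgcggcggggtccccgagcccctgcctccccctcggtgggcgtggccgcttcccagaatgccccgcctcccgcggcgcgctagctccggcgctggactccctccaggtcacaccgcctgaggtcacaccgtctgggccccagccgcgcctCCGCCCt
CCND1 −4.5 kb, chr11:69636549-69636748, plus strand: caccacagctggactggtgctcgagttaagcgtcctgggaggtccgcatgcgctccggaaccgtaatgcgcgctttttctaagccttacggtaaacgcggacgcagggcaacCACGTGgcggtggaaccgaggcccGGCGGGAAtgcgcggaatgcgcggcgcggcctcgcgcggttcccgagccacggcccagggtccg
CCND3 −68.6 kb, chr6:42010329-42010528, plus strand: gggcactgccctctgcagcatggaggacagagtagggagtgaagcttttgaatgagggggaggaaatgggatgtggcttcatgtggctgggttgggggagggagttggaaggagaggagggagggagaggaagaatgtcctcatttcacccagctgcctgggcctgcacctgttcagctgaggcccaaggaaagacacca
MYCN −0.1 kb, chr2:15940307-15940506, plus strand: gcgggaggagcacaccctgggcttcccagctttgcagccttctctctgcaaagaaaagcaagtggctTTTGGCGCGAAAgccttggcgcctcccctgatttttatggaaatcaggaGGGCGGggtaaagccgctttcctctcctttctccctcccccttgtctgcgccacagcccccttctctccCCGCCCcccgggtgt

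The CCND1 region at −4.5 kb held an E-box and an E2F match. In the MYCN start region TTTGGCGC and TTTCGCGC overlapped on opposite strands. Over the 185 regions, the E-box lay in 8 (4.32%, against 3.37% of all regions), GGGCGG in 49 (26.5% against 11.9%), GGCGGGAA in 6 (3.24% against 0.727%), TTTGGCGC and TTTCGCGC in 1 each (0.15% and 0.0423% of all), CTTTGA in 18 (9.73% against 11.8%), AGATAA in 12 (6.49% against 11.3%), the CTCF core in 7 (3.78% against 2.03%) and the octamer in 4 (2.16% against 1.65%). The 185 regions include 39 near starts. Over the 146 distal regions alone, over 1 kb from a protein-coding start, GGGCGG lay in 23 (15.8%, against 8.31% of all distal regions). There GGCGGGAA lay in 4 (2.74% against 0.552%) and the E-box in 5 (3.42% against 3.13%). A match describes letters and says nothing of binding.

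The lists held between 55777 peaks (CM replicate 2) and 156179 (MES replicate 2), so a library with a long list calls weak regions that a short list misses. CM replicate 2 called 18.6% of all regions, and the other libraries 31.2% to 53.1%. A region without a peak is one that did not pass the authors' threshold (q of 0.01) in that library, and not one shown to be closed. The number of reads behind a list was not given in the sources used here, and nothing in the labels says that the libraries of a stage came from separate differentiations, so p-values measure the spread between these libraries. Among markers of the stages, the promoters of NANOG, SOX2, DPPA4 and LIN28B were called in both hESC libraries, and of these SOX2 alone was called in both CM libraries. POU5F1 and MYH7 had no region within 1 kb of their annotated start in any library. TNNT2 and MYH6 were called in both CM libraries, in CP replicate 2 and in no hESC or MES library, and NPPA in CM replicate 1 alone. ACTN2 was called in all 8 libraries, with uncentred folds of 6.99 and 7.26 in CM and 9.22 and 8.49 in hESC. In the limma test of log2 fold described below, centred on each library's median, ACTN2 changed by −0.09 ± 0.16 (SE) from hESC to CM (adjusted p = 0.703). SOX2, the 1 hESC marker that could be tested, rose by 0.61 ± 0.17 (limma adjusted p = 0.0283). The 5 MES markers and 4 of the 5 CP markers were called in all 8 libraries and GATA4 in 7, so the presence of these peaks does not tell the stages apart. In fold, 2 of 5 tested MES markers (EOMES and MESP1) and 2 of 4 tested CP markers (HAND1 and NKX2-5) were higher in CM than in hESC. Their changes were 0.58 to 0.67 (limma adjusted p of 0.02 to 0.037), and 0 were lower. Over all regions 6.28% were higher and 6.04% lower. The part of these cells in any result was not tested. In markers of other cells, CDH5 (endothelium) was called in no library, PECAM1 in 1, and of the stroma genes COL1A1 in 4 and DCN in both of hESC alone, with none of these 4 genes called in CM. The endoderm gene SOX17 was called in all libraries and FOXA2 in 7, and the neural genes SOX1 and PAX6 were called in both libraries of hESC, MES and CM. In cell populations like these, fewer cells with an open region and a weaker opening in each cell cannot be told apart.

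All 10 genes had a peak within 1 kb of their main start in every one of the 8 libraries, as had 67.4% of protein-coding genes. No gene of the group closed its start at any stage, neither the pluripotency-linked MYCN nor the inhibitors. Peak strength is given as fold, the read pileup at the summit divided by the local background. By this measure the starts differed widely among the genes and little between stages. CCND1 had the lowest geometric mean over the 8 libraries, with 2.7 and 2.82 (hESC), 3.11 and 3.24 (MES), 3.1 and 3.82 (CP) and 3 and 3.35 (CM). CCNE1 had the highest geometric mean over the 8 libraries, with 8.43 and 8.23 (hESC), 7.74 and 8.26 (MES), 8.02 and 10 (CP) and 7.32 and 8.84 (CM). The values of these genes did not overlap. At CCND1 both hESC libraries lay below all later ones, and at CCNE1 the stages overlapped. In hESC the CDKN2A start was above CCNE1, with 8.8 and 9.31.

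**Figure D1:**
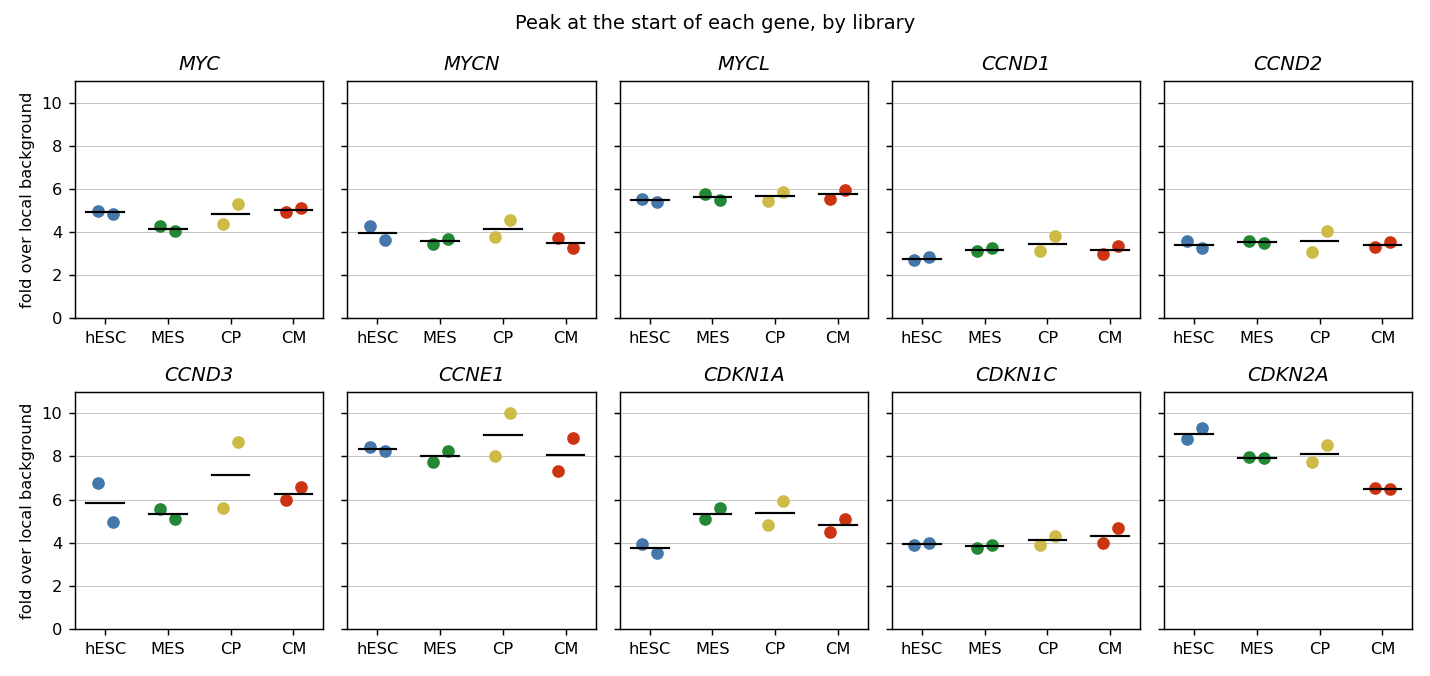
Fold over local background of the peak within 1 kb of the main start of each gene (y axis) in the 2 libraries of each stage (points, x axis), with the stage mean as a bar. CCND1 sits between 2.7 and 3.82 and CCNE1 between 7.32 and 10 in all libraries, and CDKN2A falls from 8.8 and 9.31 in hESC to 6.55 and 6.47 in CM.

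Ranked by the geometric mean of fold over 8 libraries among 13448 promoters called in all of them, CCND1 stood at percentile 0.4, CCND2 at 1.3, MYCN at 2.4, CDKN1C at 4.1, MYC at 8.7, CDKN1A at 9.1, MYCL at 18.1, CCND3 at 23.6, CDKN2A at 48.0 and CCNE1 at 54.7. A low rank in fold was not always a low pileup. In multiples of the lowest background of the library, the median pileup at the CCND1 start was 23.5 against 25.3 over all promoters (percentile 42.0), while its local background was 7.73 against 2.88 (percentile 99.4). CDKN1C had a pileup of 32.3 and a local background of 7.91. At MYCN the pileup was lower as well, at 20 (percentile 27.2), with a local background of 5.25. For MYC, MYCN, MYCL, CCND1, CCND2, CDKN1A and CDKN1C the local background, as a median over the 8 libraries, lay at percentile 93.5 or above. These starts therefore had a local background above that of most promoters. Whether broad coverage or nearby peaks raised it was not tested. The levels of fold are therefore compared between stages and not read as an order of openness between genes.

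Changes between stages were tested with limma on log2 fold, centred on the median of each library, over the 28115 regions called in all 8 libraries, with Benjamini-Hochberg adjustment over all of them. Of the 185 regions, 37 could be tested, and they had to be called at every stage to enter. Between hESC and CM 6 of the 37 were higher in CM and 1 was lower, where 6.28% and 6.04% of all regions were. The median change of the 37 was 0.21 against 0.10 over all regions. Of the 37, 27 lay above 0, and with a median of 0.10 so did most of all regions. Without centring 17 of the 37 lay above 0, with a median of −0.01. Between hESC and MES and between MES and CP limma called 0 of the 37, where it called 195 higher and 50 lower and then 69 higher and 59 lower of the 28115. At an unadjusted p under 0.05 stood 4 and 3 of the 37, against 8.34% and 9.95% of all regions. Between CP and CM 1 was lower and 0 higher (background 1.71% and 0.391%), with 10 at an unadjusted p under 0.05 (19.5% of all regions). The F test over all stages called 6 of the 37, against 10.1% of all regions. Without centring the CM minus hESC calls over all regions turned from 1767 higher and 1698 lower to 129 higher and 1837 lower, the median change of all regions moved from 0.10 to −0.12, and 1 of the 37 was called, the fall at CCND3 −68.6 kb, so a rise here is a rise relative to the library's median.

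**Figure D2:**
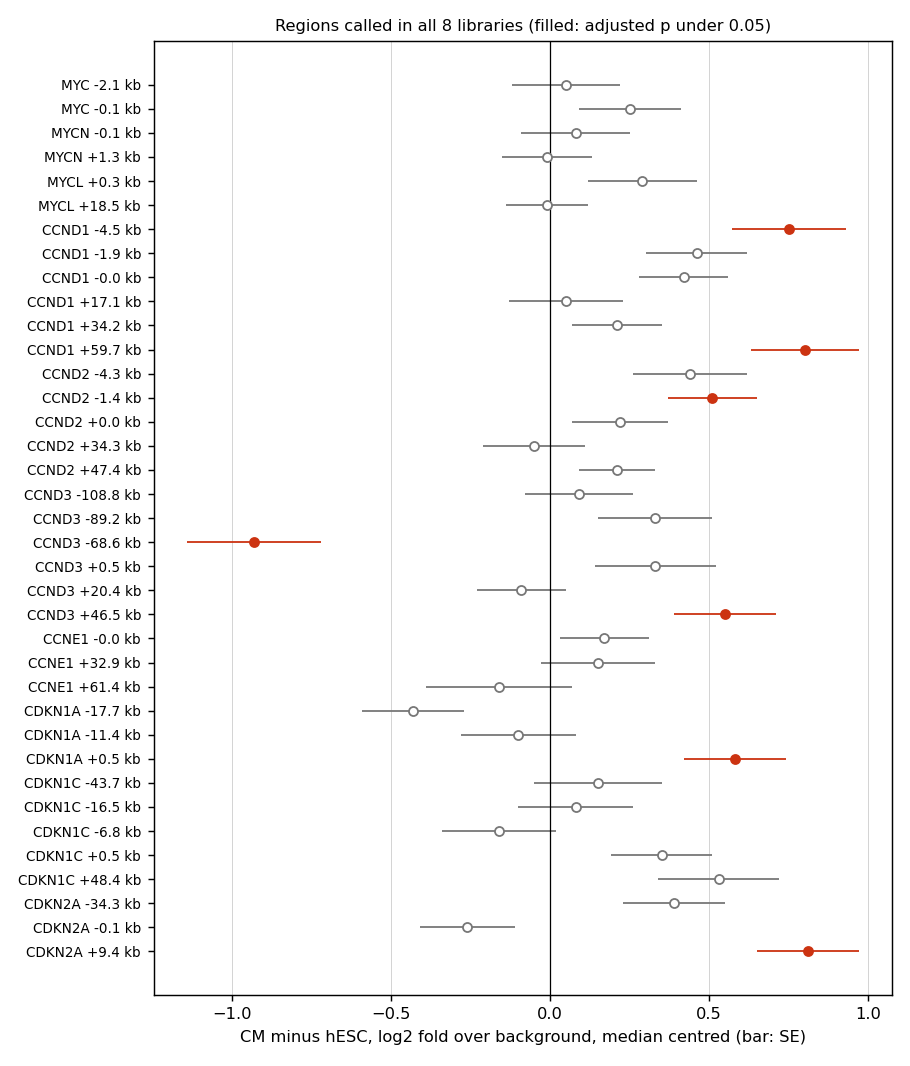
Change in fold between hESC and CM (x axis, log2, median centred, bars SE) for the 37 regions called in all 8 libraries (y axis, gene and distance from its start), with filled points past an adjusted p of 0.05. The 6 filled points to the right run from 0.51 (CCND2 −1.4 kb) to 0.81 (CDKN2A +9.4 kb), and the filled point at −0.93 is CCND3 −68.6 kb.

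The inhibitor CDKN2A held the largest rise of fold among these regions, past its 3′ end, and a fall of pileup at its start. The gene lies at chr9:21967752-21995301 on the minus strand. Its p16 start had folds of 8.8 and 9.31 (hESC), 7.97 and 7.92 (MES), 7.73 and 8.52 (CP) and 6.55 and 6.47 (CM), so that CM lay below all other stages. The centred change of −0.26 ± 0.15 (SE, log2) was not past the threshold (limma adjusted p = 0.24). The pileup itself, in multiples of the library's lowest background, was 30 and 29 (hESC), 24 and 24.1 (MES), 17.1 and 20 (CP) and 10.1 and 11.4 (CM), with no overlap between stages. Fitted in the same way in place of fold, and so centred on the library's median, the log2 pileup fell by 1.06 ± 0.16 between hESC and CM (limma adjusted p = 3.8e-06). The local background around it fell as well, from 3.13 and 2.92 in hESC to 1.35 and 1.43 in CM, which fold divides out.

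Within CDKN2A the region at +9.4 kb, past the 3′ end of the gene, rose by 0.81 ± 0.16 (limma adjusted p = 0.00591). Its folds were 4.1 and 4.44 (hESC), 4.77 and 5.38 (MES), 6.11 and 8.76 (CP) and 5.99 and 6.85 (CM), and hESC lay below the rest. Its pileup was 12.1 and 12.1 in hESC and 10.3 and 11.4 in CM (0.23 ± 0.21 on the centred log2 scale, limma adjusted p = 0.42), while the local background fell from 2.72 and 2.56 to 1.54 and 1.33. Without hESC replicate 1 the adjusted p of the rise in fold was 0.0514. The ARF start, with peaks at −20.8 kb and −19.7 kb, was called in all libraries but CM replicate 2, with folds of 4.02 to 5.52 and 2.77 to 6.01. At +41.4 kb, in an exon of MTAP, a peak of 7.63 and 6.76 stood in hESC and in no later library, and at +6.3 kb a peak of 3.53 to 4.42 stood in both MES and CP libraries and in CM replicate 1 and not in hESC.

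**Figure D3:**
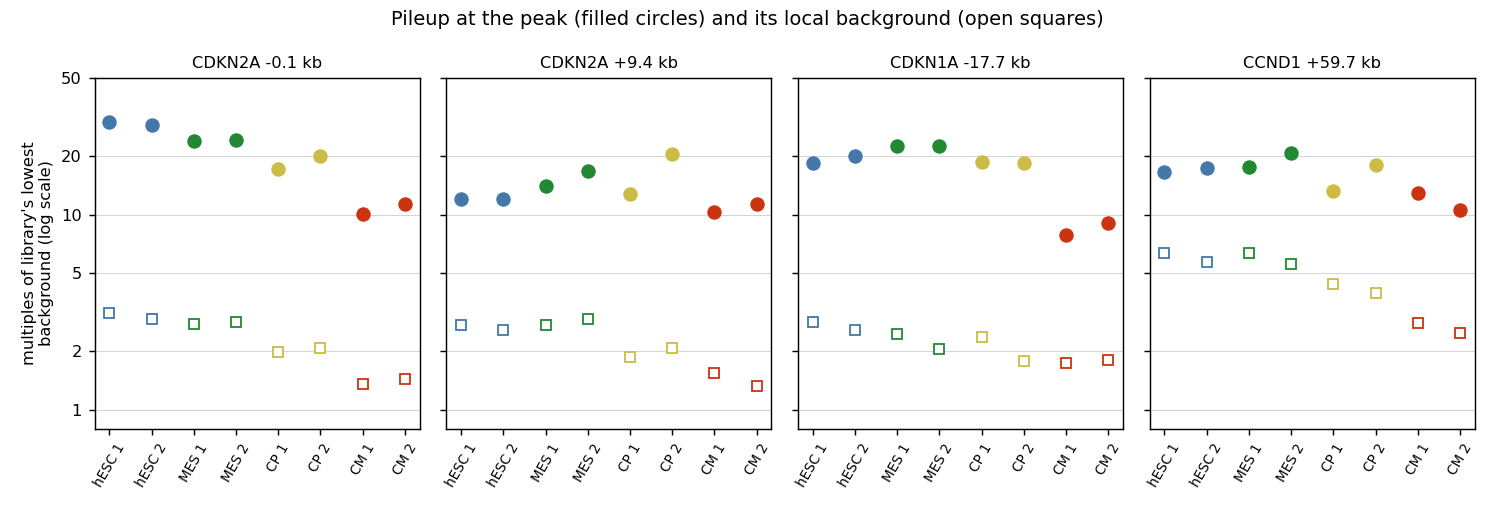
Pileup at the summit (filled circles) and local background (open squares) in multiples of the lowest background of the library (y axis, log scale), in each of the 8 libraries (x axis), for 4 regions. At CDKN2A −0.1 kb both fall from hESC to CM, at CDKN2A +9.4 kb and CCND1 +59.7 kb the background falls more than the pileup, and at CDKN1A −17.7 kb the CM pileups of 7.88 and 9.06 lie below all others.

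The p21 gene CDKN1A (chr6:36676460-36687337, plus strand) rose in fold at its start from hESC to CM and fell upstream of it from CP to CM. At the start the folds were 3.96 and 3.54 (hESC), 5.08 and 5.6 (MES), 4.81 and 5.94 (CP) and 4.48 and 5.12 (CM), with hESC below every later library. The change from hESC to CM was 0.58 ± 0.16 (limma adjusted p = 0.0314), and 0.39 ± 0.15 as pileup (adjusted p = 0.0498). Both are centred on the library's median. Without centring the change in fold was 0.36 (limma adjusted p = 0.295). In multiples of the library's lowest background the pileups overlapped, with 25.8 and 19.9 in hESC and 19.7 and 26 in CM. The call in fold was lost when any 1 library of hESC, MES or CM was left out, with adjusted p values of 0.0531 to 0.221. The region at −2.3 kb had a peak in both hESC libraries (3.06 and 3.68), in MES replicate 2 (2.55) and in CM replicate 1 (2.99). At +1.8 kb, in an exon, a weak peak was called in both MES and both CM libraries and in CP replicate 1 (2.28 to 2.7), and in neither hESC library.

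At −17.7 kb lay the distal region of CDKN1A with the highest −log10 q, with folds of 5.97 and 7.33 (hESC), 8.3 and 9.87 (MES), 7.26 and 9.04 (CP) and 4.16 and 4.29 (CM). The CM libraries lay below all others. From CP to CM it fell by 0.65 ± 0.16 on the log2 scale (limma adjusted p = 0.0431), and as pileup by 0.65 ± 0.19 (adjusted p = 0.0312). Leaving out any 1 of the 8 libraries raised the adjusted p of the fall in fold to between 0.0554 and 0.251, the highest without CM replicate 2. Against hESC the change in log2 fold was −0.43 ± 0.16 (adjusted p = 0.0812), and log2 pileup fell by 0.80 ± 0.19 (adjusted p = 0.00183). At +46.1 kb and +52.2 kb, in introns of RAB44, peaks stood in both hESC libraries (4.4 and 5.14, and 3.56 and 3.23) and in none later.

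CDKN1C (chr11:2883213-2885775, minus strand), the gene of p57, kept an even start with folds of 3.91 and 3.98 in hESC and 3.99 and 4.67 in CM (0.35 ± 0.16 centred, adjusted p = 0.141). Relative to the library's median, its log2 pileup rose by 0.52 ± 0.16 (limma adjusted p = 0.0123). In multiples of the library's lowest background the pileups overlapped, with 32.5 and 27.9 in hESC and 29.5 and 36.6 in CM. In an intron of KCNQ1 at +48.4 kb the folds were 4.47 and 4.23 (hESC), 4.92 and 5.51 (MES), 4.24 and 7.42 (CP) and 4.76 and 6.14 (CM). This region rose by 0.99 ± 0.16 in log2 pileup (adjusted p = 1.77e-05), and its change in fold was 0.53 ± 0.19 (adjusted p = 0.0703). The regions at +23.3 kb and −23.7 kb were called in all 6 libraries of hESC, MES and CP and in neither of CM, and −27.0 kb in hESC and MES alone.

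Among the D-type cyclins, CCND1 (chr11:69641156-69654474, plus strand) rose upstream of its start. At −4.5 kb the folds were 2.18 and 3.18 (hESC), 2.72 and 2.99 (MES), 2.91 and 2.83 (CP) and 3.63 and 3.97 (CM). CM was above every other library, and the hESC libraries were far apart. The change was 0.75 ± 0.18 (limma adjusted p = 0.0149), 0.48 without hESC replicate 1 (adjusted p = 0.171), and 0.48 ± 0.18 in log2 pileup (adjusted p = 0.0399). The start itself changed by 0.42 ± 0.14 (adjusted p = 0.0577). At +59.7 kb, in an intron of FGF19, the folds of 2.52 and 2.97 in hESC and 4.35 and 3.84 in CM gave a rise of 0.80 ± 0.17 (adjusted p = 0.00752, and 0.0784 without hESC replicate 1 and 0.05 without CM replicate 1). As pileup the same region stood at −0.14 ± 0.19 (adjusted p = 0.631), with a local background that fell from 6.38 and 5.69 to 2.8 and 2.48. The distal peak with the highest −log10 q, at +44.9 kb, had folds of 5.59 to 9.63 in 7 libraries and was not called in CM replicate 2.

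CCND2 (chr12:4269771-4305353, plus strand) and CCND3 (chr6:41934934-42050357, minus strand) are the D-type cyclins with several starts. At CCND2 −1.4 kb the folds were 2.65 and 2.5 (hESC), 2.42 and 2.76 (MES), 2.75 and 2.89 (CP) and 3.03 and 3.28 (CM), a rise of 0.51 ± 0.14 (limma adjusted p = 0.0288). That call was lost without any 1 library of hESC, MES or CM (adjusted p of 0.0505 to 0.189), and in log2 pileup the change was 0.16 ± 0.16 (adjusted p = 0.48). At −45.4 kb, its distal region with the highest −log10 q, folds of 6.4 and 8.47 in hESC, 3.96 and 8.14 in MES, and 3.68 and 4.06 in CP were followed by no peak in CM. The sequence there held an E-box and 2 GGGCGG matches.

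At CCND3 −68.6 kb, in an exon of the gene, the folds were 7.74 and 9.18 (hESC), 5.79 and 8.1 (MES), 3.2 and 6.47 (CP) and 3.95 and 3.67 (CM). This was the largest fall of the 37 regions, where log2 fold fell by 0.93 ± 0.21 (limma adjusted p = 0.0131) and its log2 pileup fell by 1.15 ± 0.27 (adjusted p = 0.00199). Without hESC replicate 2 the adjusted p in fold was 0.107, and without CM replicate 2 it was 0.113. Nearby at −75.5 kb, in an intron, a peak absent from hESC was called in both MES libraries (4.52 and 4.86), in CP replicate 2 (6.97) and in both CM libraries (4.64 and 6.56). The region at +46.5 kb, the start of USP49, rose by 0.55 ± 0.16 in fold (adjusted p = 0.0374, lost without any 1 library of hESC, MES or CM with adjusted p of 0.051 to 0.182) and by 0.56 ± 0.16 in pileup (adjusted p = 0.00849). At −23.9 kb, in an intron, folds of 6.28 and 7.66 in hESC went down to 4.01 and 3.6 in CP and 3.35 in CM replicate 2, with no peak in CM replicate 1. The main start of CCND3 changed by 0.33 ± 0.19 (adjusted p = 0.24).

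CCNE1 (chr19:29811991-29824312, plus strand) changed at its start by 0.17 ± 0.14 in fold (limma adjusted p = 0.418) and by 0.52 ± 0.15 in log2 pileup (adjusted p = 0.0104). Both are relative to the library's median. In multiples of the library's lowest background the pileups overlapped, with 26.5 and 29.7 in hESC and 25.8 and 36.2 in CM. At +32.9 kb, its distal region with the highest −log10 q, the folds were 5.85 to 7.13 in all libraries. Peaks at −40.0 kb (4.67 to 5.86) and +60.5 kb (3.73 to 4.97) were called in all 6 libraries of the first 3 stages and in neither CM library, and one at −25.7 kb in hESC alone (6.7 and 5.47). In CM replicate 1 and 2 the window held 25% and 15% of its 20 regions, against 31.2% and 18.6% of all regions.

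At the MYC family genes limma called no region in any contrast. Few could be tested there, namely the region at each main start, MYC −2.1 kb, MYCN +1.3 kb and MYCL +18.5 kb. Over all regions 6.28% were called higher and 6.04% lower between hESC and CM. With so few tested, the lack of a call does not set the family apart. The differences described here are peaks that came and went. MYC (chr8:127735434-127742951, plus strand), in a window that holds no other protein-coding gene, had start folds of 4.99 and 4.84 (hESC), 4.27 and 4.03 (MES), 4.38 and 5.29 (CP) and 4.94 and 5.09 (CM). The stages overlapped but for the lower MES pair, and the CM minus hESC change was 0.25 ± 0.16 (limma adjusted p = 0.297). At −10.2 kb, in an intron of the long non-coding gene CASC11, folds of 7.3 and 5.81 in hESC, 5.1 and 5.71 in MES, and 3.29 and 4.88 in CP gave way to no peak in CM. At −2.1 kb, its distal region with the highest −log10 q, the folds were 3.14 to 4.01 in all libraries. At −38.0 kb a peak was called in MES alone (5.11 and 6.07). At +7.0 kb one was called in hESC alone (3.56 and 3.14).

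MYCN (chr2:15940550-15947007, plus strand), the family member known from pluripotent and early embryonic cells, had folds of 4.26 and 3.48 in hESC and 3.73 and 3.27 in CM in the region at its start, which changed by 0.08 ± 0.17 (limma adjusted p = 0.762). Its window held 36.8% and 57.9% of its 19 regions in hESC, against 34.5% and 53.1% of all regions, and 31.6% and 10.5% in CM, against 31.2% and 18.6%. At +40.1 kb, the distal region with its highest −log10 q (34.9), the folds were 5.92 and 6.35 in hESC, 6.67 and 7.02 in MES and 2.89 and 3.46 in CP, with no peak in CM. At −44.2 kb peaks stood in hESC (3.75 and 4.53) and MES (3.61 and 6.9) alone, and at +51.3 kb in MES alone (7.01 and 6.75). At +17.9 kb folds of 4.5 to 6.18 in hESC and MES were followed by 3.79 in CP replicate 1 and by none after it.

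MYCL (chr1:39895428-39902256, minus strand), the third of the family, gained a peak late. Its start stayed between 5.41 and 5.96 in all libraries. At +56.0 kb, in an intron of the neighbouring tRNA-modifying gene TRIT1, a peak was called in CP replicate 2 (5.28) and in both CM libraries (8.15 and 8.29, with a highest −log10 q of 32.8), and in no hESC or MES library. At −24.7 kb a peak was called in both CP libraries (3.88 and 4.76) and MES replicate 2 (2.96) alone. At −20.6 kb, its distal region with the highest −log10 q, folds of 5.08 to 6.29 in hESC and MES were followed by 2.79 and 3.34 in CP, 2.86 in CM replicate 1 and no peak in CM replicate 2. Opposite to it, a peak at +23.7 kb was called in hESC alone (4.71 and 6.11), and the one at −17.8 kb (4.39 to 6.63) in the 3 stages before CM.

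**Figure D4:**
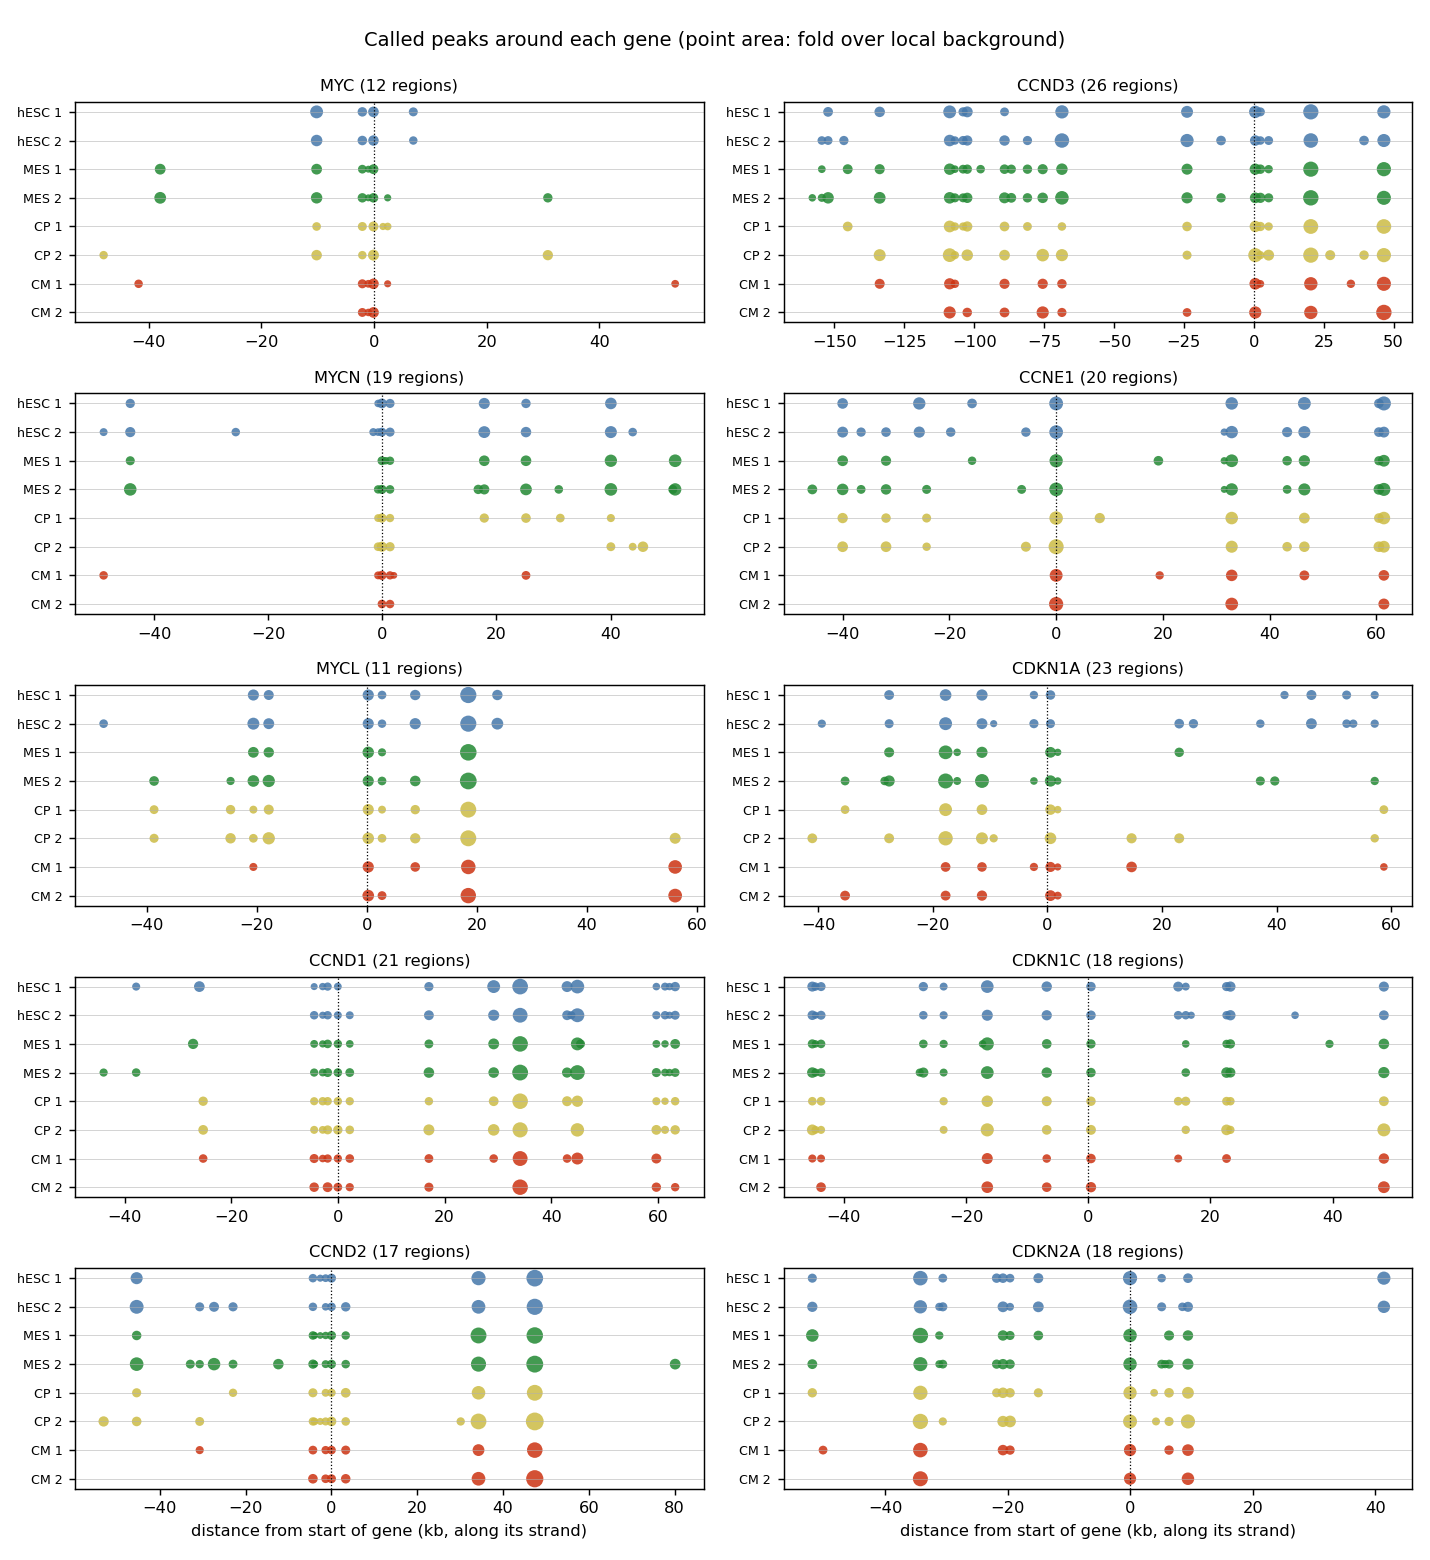
Peaks called in each library (y axis) by distance from the main start along the gene's strand (x axis, kb) in the windows of the 10 genes, with point area in proportion to fold and colour by stage. The starts at 0 carry a point in all 8 libraries, and the rows of CM replicate 2 are the sparsest, with 48 of the 185 regions against 126 in MES replicate 2.

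Counted over all 10 windows, a region was taken as present at a stage where both libraries called it and as absent where neither did. Of 86 regions present in hESC 29 (33.7%) were absent in CM, against 45.6% of all regions, and of 43 present in CM 4 (9.3%) were absent in hESC, against 21.3%. The 4 gained ones were MYC −1.0 kb, MYCL +56.0 kb, CCND3 −75.5 kb and CDKN1A +1.8 kb. Regions near starts are part of these counts. Among the regions whose centre lay over 1 kb from any protein-coding start, 27 of 56 (48.2%) were lost and 3 of 19 (15.8%) gained. Over all regions with such a centre the shares were 54.8% and 31.4%. In the 10 windows the region's edge also had to lie over 1 kb from any main start, so the cuts were not quite alike. With regions near starts included, each of the 10 genes lost at least 1. The counts ran from 2 of 13 at CCND1 and 1 of 6 at CCND2 to 2 of 4 at MYC, 4 of 8 at CDKN1A and 5 of 10 at CDKN2A. Without hESC replicate 1 the lost regions were 58 of 120 (48.3%, against 62.1% of all), without CM replicate 1 they were 45 of 86 (52.3% against 61.8%), and without CM replicate 2 the gained regions were 15 of 74 (20.3% against 37.9%). With lists cut to equal length by their q-values, 10 of 52 were lost (19.2% against 32.4%) and 6 of 41 gained (14.6% against 29.2%).

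From stage to stage the counts were smaller. From hESC to MES 7 of 86 were lost and 9 of 89 gained (13.4% and 19.2% of all regions), from MES to CP 10 of 89 were lost and 1 of 73 gained (19.5% and 8.96%), and from CP to CM 15 of 73 were lost and 1 of 43 gained (26.5% and 9.54%). The region gained from MES to CP was CCND1 −25.3 kb, with 3.83 and 4.15 in CP and 3.24 in CM replicate 1, and the one gained from CP to CM was MYC −1.0 kb, with 2.68 and 2.5 in CM and 2.13 and 2.14 in MES.

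**Figure D5:**
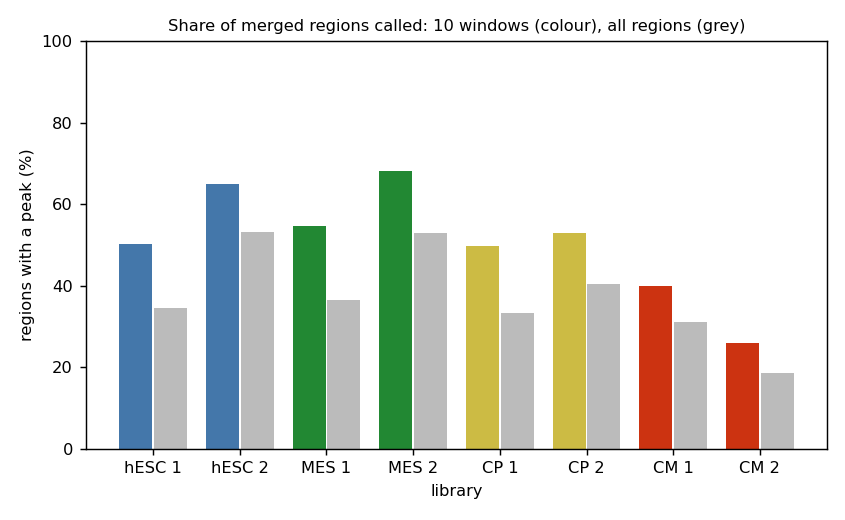
Share of merged regions with a peak (y axis, percent) in each library (x axis), for the 185 regions around the 10 genes (coloured by stage) and for all 285909 regions (grey). The windows lie above all regions in each library, from 25.9% against 18.6% in CM replicate 2 to 68.1% against 53% in MES replicate 2. Of the 185 regions, 39 lie near starts. The 146 distal ones alone (not drawn) stood at 30.1% and 15.8% in CM replicate 1 and 2. All regions stood at 31.2% and 18.6% there, but they include regions near starts. The share over all distal regions was not taken per library, so no direction is read from these values. In every hESC, MES and CP library the 146 distal regions stood above all regions.

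The share of a gene's regions that a library called, less the share over all regions, was also set against the order of the stages over the 8 libraries. The relation was positive for MYC (Pearson's r = 0.749, exact permutation p = 0.0183, Spearman's rho = 0.830, exact p = 0.0198) and negative for CDKN1C (r = −0.783, exact p = 0.0254, rho = −0.781, exact p = 0.0349). With 2 of 10 genes under 0.05, the group stood beside 14.8% of 18751 genes, and after adjustment over all genes the values were 0.253 and 0.275, with no gene of the genome under 0.05. Without the hESC pair r was 0.547 (exact p = 0.356) for MYC and −0.743 (exact p = 0.111) for CDKN1C, and without the CM pair 0.667 (exact p = 0.133) and −0.495 (exact p = 0.311). Neither relation held at an exact p under 0.05 without either pair.

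The other genes of the same machinery were counted at their starts. A list of 38 genes held the MYC partners and antagonists (MAX, MXD1, MNT and others), further cyclins and kinases, the pocket proteins and E2F factors, other inhibitors with MDM2, and the ubiquitin ligase genes SKP2 and FBXW7. All 38 promoters were called in all 8 libraries. Between hESC and CM limma called 4 higher and 1 lower of the 38, where 6.28% and 6.04% of all regions were, with a list median of 0.28, beside 0.27 over the 10 starts and 0.10 over all regions. The 4 were CDK6 (0.59 ± 0.16, adjusted p = 0.0288), a cyclin D partner, CDKN2D (0.56 ± 0.16, adjusted p = 0.0309), an inhibitor related to p16, the mitotic cyclin CCNB1 (0.43 ± 0.11, adjusted p = 0.0266) and E2F8 (0.47 ± 0.14, adjusted p = 0.0454), a repressor of the E2F family. The 1 that fell was CCNA1, the cyclin known from germ cells, with folds of 8.62 and 7.67 (hESC), 6.94 and 8.41 (MES), 5.72 and 7.48 (CP) and 4.61 and 4.28 (CM) (a fall by 0.65 ± 0.16 on the log2 scale, adjusted p = 0.018). In the other 3 contrasts limma called 0 of the 38.

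Fold and pileup gave different calls between hESC and CM around the 10 genes. On pileup 12 of the 37 regions were called, 8 higher and 4 lower, where 17.2% and 7.88% of all regions were. Log2 pileup was also centred on each library's median, so its rises too are relative to that median. No fit of pileup without centring was run. Of the 7 regions called on fold 4 were called on pileup in the same direction, namely CCND1 −4.5 kb, the CDKN1A start, CCND3 +46.5 kb and CCND3 −68.6 kb. Called on pileup alone were the falls at the CDKN2A start, CDKN1A −17.7 kb and CDKN1A −11.4 kb and rises at the CCNE1 start, CCNE1 +32.9 kb, the CDKN1C start, CDKN1C +48.4 kb and CDKN2A −34.3 kb. CCND2 −1.4 kb, whose edge lay within 1 kb of the main start of CCND2, passed the F test over stages in fold (limma adjusted p = 0.0343). None of the 10 regions nearest to a main start, 1 for each gene, passed it (adjusted p of 0.0913 to 0.481), so no gene is named as like one of them.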

How the data were processed

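ATAC-seq peak lists of 8 libraries were used (hESC, MES, CP and CM, 2 each). Per the study's methods and the submitters' processing notes, the authors aligned reads to hg38 with BWA 0.7.13, filtered them at a mapping quality of 30, dropped duplicates (Picard) and ran MACS2 2.1.0 on each library without a model (q 0.01, shift of 100 bases upstream, extension of 200). Bedtools 2.26.0 is also named. The deposited columns hold fold over local background (a ratio), a p-value and a q-value as −log10, and a score for display that was not used. Read counts were not used here.

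Peaks of all lists were merged where they overlapped, and regions within 50 kb of a gene (GENCODE 44, GRCh38) were taken. The highest fold in a region stood for a library. Log2 fold was tested with limma 3.58.1 (R 4.3.3, trend, median centring, 2 libraries a stage, Benjamini-Hochberg adjustment) and shares of called regions by exact permutation over libraries, two-sided. Pileup was recovered from fold and −log10 p under the caller's Poisson model, and is no deposited column. The limma and permutation steps were tested on simulated data. Other analyses used Python 3.11.15, pandas 2.3.3, numpy 2.4.6, scipy 1.17.1 and matplotlib 3.10.9. The 8 lists differ in length, which limits what a missing peak can show.

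Named regions were those at starts, those called by limma, the distal region with the highest −log10 q of each gene and up to 4 distal regions a gene that were called in both libraries of a stage and neither of another. CDKN1A +1.8 kb, CDKN1A −11.4 kb and CDKN2A −34.3 kb were named in counts after their values were seen. The genes, lists and markers were chosen with earlier results of these data known. Motifs were matched on both strands in 200 bases around the strongest summit. A further gene of the lists and a motif are not reported here.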

Additional observations from a re-analysis of the deposited data

How the results depend on the processing

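All 10 starts stayed called in all 8 libraries under every alternative run. Between hESC and CM, 7 regions were called. Without centring there was 1, with pileup in place of fold 12, and with 1 library left out 1 to 10, lowest without hESC replicate 1. Between CP and CM, 1 was called, the fall at CDKN1A −17.7 kb, and 0 when regions in at least 6 libraries were tested. With 1 library left out the change there was −0.57 to −0.67 in log2 fold and was not called. Any region called between CP and CM in those runs was a rise elsewhere. The F test called 6, with 1 without centring, 3 with quantile normalization, 10 with pileup, and 3 to 8 with 1 library left out. The cause of these changes was not tested. The 29 regions lost from hESC to CM were 10 in lists of equal length, 64 when 1 replicate sufficed, and 29 to 58 with 1 library left out. The 4 gained were 2 at a −log10 q of at least 5, 16 when 1 replicate sufficed, and 4 to 15 with 1 library left out. Genes with a stage trend under an exact p of 0.05 numbered 2, 0 in windows of 20 kb or 100 kb, 5 without subtracting the share of all regions, and 0 to 3 with 1 library left out. The change at CCND1 +59.7 kb turned to −0.14 on pileup, and the MYCL trend (r = 0.008) to −0.897 in lists of equal length. Deviations of same-numbered libraries correlated at 0.129 to 0.192 among hESC, MES and CP and at −0.120 to 0.000 with CM, so numbers were not taken as pairs. With replicate number as a block, limma called 7 regions between hESC and CM, 6 by the F test and 1 between CP and CM, and 3 genes had a trend, CDKN2A among them (r = −0.834, exact p = 0.0347). Depth per library was not given in the sources used here, so a missing peak was read only against the list's length.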
